A study of Mus musculus with 24 samples.

Results

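Genes that bring cholesterol into the liver cell, move it between its membranes and pass it out again were followed in livers of mice on different diets. The genes were chosen with earlier results of these data known, and their probe sets by name: every probe set for which the platform annotation lists exactly 1 gene symbol, that of Stard4, Npc1, Npc2, Scarb1, Abca1, Abcg1, Abcg5, Abcg8 or Soat2, was kept. This gave 18 of the 45101 probe sets on the array and 8 of the 9 genes, with 4 probe sets for Npc2, 3 each for Stard4, Scarb1 and Abca1, 2 for Abcg1 and 1 each for Npc1, Abcg5 and Abcg8. Soat2, which esterifies cholesterol in liver and intestine, was not analysed here.

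Livers of 18 male C57BL6J mice, all acclimated on a low-fat diet and fasted for 16 h before dissection, were hybridised to Affymetrix arrays, 1 array per mouse. HF+P mice (6) ate a high-fat diet with 45% fat to which 5% powdered propagules of Japanese yam, the small tubers that form on its vines, had been added; HF mice (6) ate the same high-fat diet without them; LF mice (6) ate a low-fat diet. The diets lasted 4 weeks. The 6 HF arrays were processed by the authors once with the LF arrays and a second time with the HF+P arrays, so that 24 columns of values exist for 18 mice, and each comparison was made within its own set of 12 columns. All 7 hepatocyte markers (Alb, Ttr, Apoa1, Serpina1c, Tat, Cps1 and Hnf4a) stood at percentile 98.8 or above of the probe sets in the set of HF and LF, in a check of the liver label. In a piece of whole liver, fewer cells of a type and less RNA per cell cannot be told apart.

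Hepatocytes make cholesterol and also take it up with lipoproteins. Cholesterol freed in the lysosome leaves through the paired proteins NPC2 and NPC1, travels between membranes with carriers such as STARD4, and exits through ABC transporters to HDL particles or into bile, while SR-BI takes cholesteryl ester back from HDL. The supply side, with Stard4 among the target genes, is driven by the transcription factor SREBP-2 when the endoplasmic reticulum is low in cholesterol, and the transporters Abca1, Abcg1, Abcg5 and Abcg8 are driven by the nuclear receptors LXR alpha and LXR beta when oxysterols accumulate.

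The unit of the deposited values is not given in the sources used here, and for most probe sets they differ between arrays in late decimals only: the median SD of a probe set across its 12 arrays was 4.17 millionths of a unit in the set of HF and LF, and 4.26 millionths in the set of HF+P and HF. A difference between groups is therefore no fold change. Its size is given as a standardized difference: the gap between the means of 2 groups, divided by their pooled SD and corrected for small samples after Hedges, with a 95% interval. A probe set was called when limma's Benjamini-Hochberg adjusted p over all 45037 probe sets tested lay below 0.05. Replicates are the mice as the labels number them.

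In HF against LF livers Stard4 was the only gene of the set that was called. Of the 18 probe sets 3 were called higher in HF, all of Stard4, 0 were called lower and 15 were not called. Over the whole array 0.671% of probe sets were called, 0.269% higher and 0.402% lower. By value alone 12 of the 18 were higher in HF and 6 lower, with a median standardized difference of 0.35 beside 0.01 over all probe sets tested. The groups did not overlap in 3 probe sets that were higher in HF (0.644% of the array) and in 1 that was lower, that of Abcg5 (0.921% of the array). An unadjusted p below 0.05 was met by 7 of the 18: the 3 of Stard4, the 3 of Scarb1 and that of Abcg5. Over the array 12.9% met it, 5.69% with higher and 7.25% with lower values in HF.

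**Figure D1:**
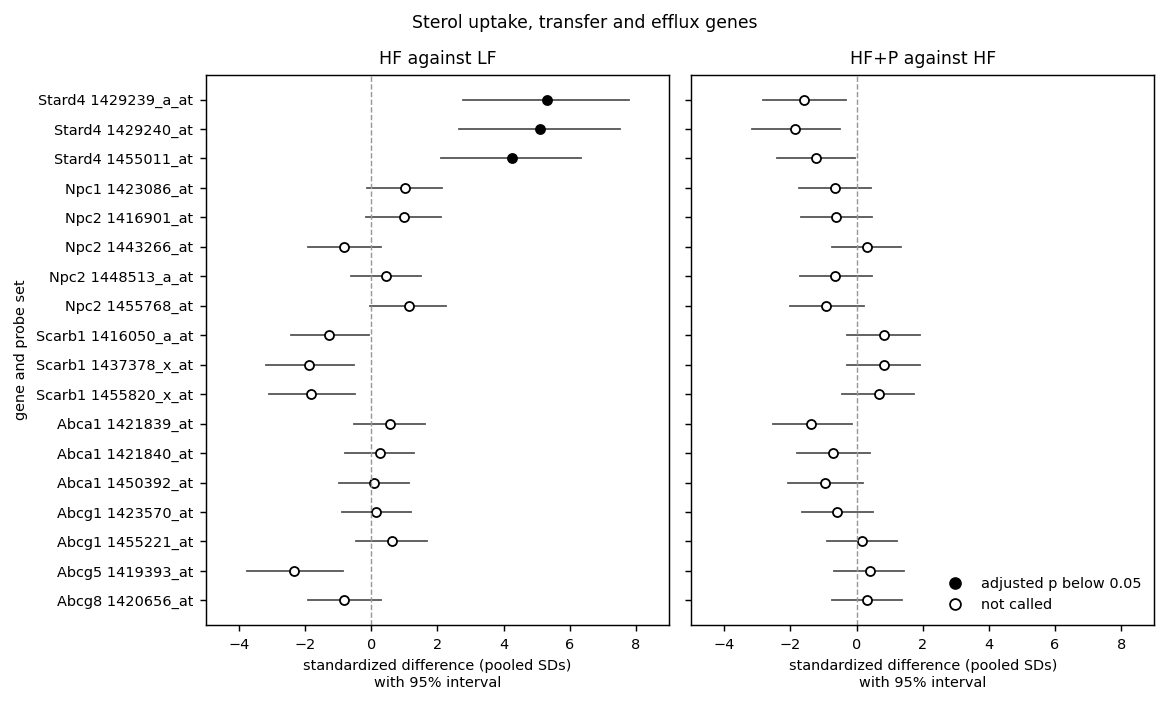
Standardized difference (x axis, in pooled SDs, with its 95% interval) of the 18 probe sets, for HF against LF (left) and HF+P against HF (right); n = 6 mice per group, and filled points passed an adjusted p of 0.05. The 3 probe sets of Stard4 lie between 4.25 and 5.30 on the left and are the filled ones, and between -1.86 and -1.24 on the right.

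Stard4 encodes a soluble carrier that shuttles cholesterol between cell membranes. Its gene lies on chromosome 18 (GRCm38.p6, chr18:33199138-33213862). At probe set 1429239_a_at the deposited values of HF livers were 7.576 at the lowest, 7.584 at the median and 7.586 at the highest, against 7.553, 7.557 and 7.565 in LF livers. At 1429240_at they were 7.929, 7.934 and 7.935 in HF, against 7.912, 7.916 and 7.920 in LF, and at 1455011_at 8.484, 8.486 and 8.489 in HF, against 8.463, 8.469 and 8.476 in LF. Each of the 6 HF mice lay above each of the 6 LF mice at all 3 probe sets. HF mouse 4 was the highest and LF mouse 1 the lowest of all 12 at each of them.

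Stard4 rose in HF by 5.30 pooled SDs at 1429239_a_at (2.77 to 7.79, with 6 mice in each group; limma, adjusted p = 0.0016), by 5.10 at 1429240_at (2.64 to 7.52; limma, adjusted p = 0.00204) and by 4.25 at 1455011_at (2.12 to 6.34; limma, adjusted p = 0.00558). All 3 were called in each of the 12 fits that left out 1 mouse, with sizes between 3.96 and 6.60. The rise also kept its size when the arrays were rescaled: after quantile normalization the values were 5.25, 4.89 and 4.18, and after centring on column medians 5.28, 5.07 and 4.23. The spread of Stard4 over the HF and LF arrays together, which includes the gap between the groups, lay at percentiles 99.7 to 99.8 of all probe sets. The 14 probe sets of genes other than Stard4 and Abcg5 lay between percentiles 32.5 and 93.4.

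**Figure D2:**
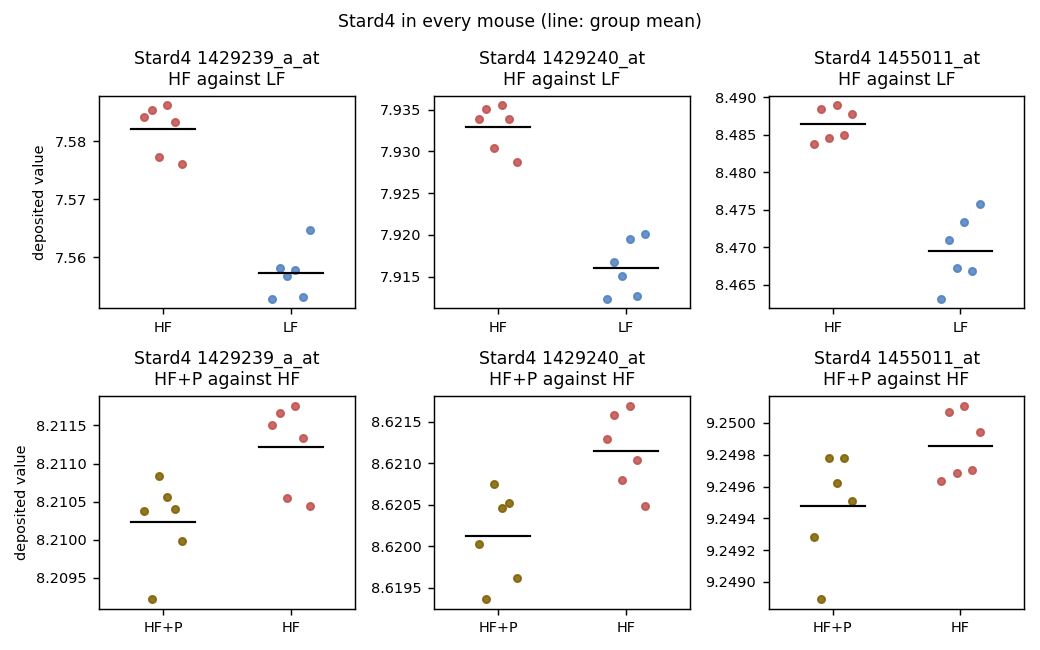
Deposited values of the 3 Stard4 probe sets (y axis, unit not given) in every mouse, for HF against LF (top row) and HF+P against HF (bottom row), with lines at the group means, n = 6; the axes do not start at 0 and differ between panels. All HF mice lie above all LF mice in the top row, and in the bottom row the HF+P mice lie low but overlap with HF.

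By the rule for likeness, the root mean square difference of z-scores over the 12 HF and LF columns, the genes nearest to Stard4 1429239_a_at were Erg28 (0.28), Cyp51 (0.28) and Scap (0.30). Those nearest to 1429240_at were Erg28 (0.26), Scap (0.28) and Igf1 (0.29), and to 1455011_at Sc5d (0.22), Erg28 (0.29) and Lss (0.29). The median over all probe sets compared was 1.36 for 1429239_a_at. The z-scores span both groups, so the gap between HF and LF counts in this likeness. Cyp51, Sc5d and Lss are enzymes of the sterol pathway from lanosterol to cholesterol or of its entry, Erg28 is an endoplasmic reticulum scaffold for such enzymes known from yeast, Scap escorts SREBP proteins to the Golgi, and Igf1 encodes the liver's insulin-like growth factor.

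The lysosomal exit genes were not called. Npc1 encodes the membrane protein that takes cholesterol over from NPC2 (GRCm38.p6, chr18:12189694-12236506), and Npc2 the soluble carrier in the lysosome's lumen (chr12:84754559-84773112). Measured from the LF mean, Npc1 values ran from -3.78 over a median of 11.8 to 28.0 millionths in HF mice, against -17.6, 1.96 and 11.6 millionths in LF mice. The groups overlapped, with 5 of 6 HF mice above the LF median, and the standardized difference was 1.02 (-0.13 to 2.13; limma, adjusted p = 0.447). For Npc2 it was 1.004 at 1416901_at, 0.45 at 1448513_a_at and 1.13 at 1455768_at, but -0.84 at 1443266_at, with limma's adjusted p between 0.389 and 0.788. Centring on column medians turned the sign of Npc1 (-2.21) and of the 3 Npc2 probe sets above 0 (-1.28, -1.65 and -2.09), so no direction is drawn from them.

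HF mouse 3 was the highest of the 12 mice at those 3 probe sets of Npc2, at 57.2, 40.3 and 21.5 millionths from the LF mean, and likewise at both probe sets of Abcg1. The same mouse had the highest score of the 12 macrophage markers among HF mice, a mean over markers of 2.14 pooled SDs from the LF mean, with the next HF mouse at 0.69. Among LF mice, LF mouse 3 stood apart at 1.56, with the next at -0.04. At those 3 probe sets of Npc2, LF mouse 3 lay at 7.62, 2.68 and 3.97 millionths from the LF mean. At Abcg1 it lay at 41.5 (1423570_at) and -0.90 millionths (1455221_at). Macrophage scores ran from -0.31 to 2.14 in HF and from -0.86 to 1.56 in LF mice, and 10 of the 12 markers were higher in HF by value with 0 called. HF mouse 3 was also the highest HF mouse in lymphocyte (2.42, with the next at 0.66) and fat cell scores. It was the lowest HF mouse in hepatocyte, endothelial, stellate, bile duct and pancreatic acinar scores. Without HF mouse 3 the standardized differences of Npc2 were 0.83 at 1416901_at, 0.14 at 1448513_a_at and 1.02 at 1455768_at, and those of Abcg1 -0.39 at 1423570_at and 0.33 at 1455221_at, with limma's adjusted p between 0.505 and 0.959 in these fits. The part of RNA from macrophages or other cell types in Npc2 and Abcg1 values was not tested.

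Scarb1 encodes SR-BI, the receptor through which hepatocytes take cholesteryl ester from HDL (GRCm38.p6, chr5:125277087-125341094). Its values were lower in HF at all 3 probe sets and none passed the test. At 1437378_x_at HF mice lay at -55.1, -29.9 and -9.38 millionths from the LF mean (lowest, median, highest), against -16.3, 0.01 and 16.1 millionths in LF mice. At 1455820_x_at the values were -79.2, -37.6 and -22.4 millionths in HF and -32.2, 1.63 and 26.9 in LF, and at 1416050_a_at -96.9, -42.7 and 15.9 in HF and -14.6, 0.12 and 16.9 in LF. All 6 HF mice were below the LF median at 1437378_x_at and 1455820_x_at, and 5 of 6 at 1416050_a_at, where HF mouse 1 lay among the LF mice. The groups overlapped at each.

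The standardized differences of Scarb1 were -1.87 at 1437378_x_at (-3.17 to -0.52; limma, adjusted p = 0.138), -1.82 at 1455820_x_at (-3.09 to -0.48; limma, adjusted p = 0.151) and -1.28 at 1416050_a_at (-2.44 to -0.07; limma, adjusted p = 0.318). The sign was the same in every fit that left out 1 mouse, with sizes between -2.32 and -1.10. Centring on column medians took all 3 past the threshold, at -4.66, -4.15 and -3.53 (limma, adjusted p = 0.000495 each). That centring moves HF against LF by 64.5 millionths, more than these differences, and called 42047 of 45037 probe sets lower in HF. These calls therefore do not set Scarb1 apart. Quantile normalization gave no value at the first 2, whose rank was the same in every array, and -0.84 at 1416050_a_at (limma, adjusted p = 0.286).

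Abca1 (GRCm38.p6, chr4:53030789-53159988) encodes the transporter that loads cholesterol and phospholipid on to lipid-poor apolipoprotein A1, and Abcg1 (chr17:31057694-31117984) the one that exports it to HDL particles already formed, mainly from macrophages. The stretch upstream of an annotated Abca1 start holds the direct repeat through which LXR is known to act on the gene, and it is shown because Abca1 is read in liver as an LXR target. RefSeq's promoter table (GRCm38.p6) has it at chr4:53159940-53159969, minus strand, printed 5′ to 3′. The searched part of the repeat, TGACCG and TAACC with 4 bases between them, is in capitals:
Abca1 element: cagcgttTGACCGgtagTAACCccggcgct
The sequence searched was that of the known Abca1 repeat without the last base of its second part, so its match in Abca1 was fixed in advance. It was found in 4 of the 32851 promoters of the table (0.0122%, both strands searched). The promoters of Npc2, Abcg5 and Abcg8 did not hold it, which says nothing of LXR repeats with another sequence. Entries existed for Npc2, Abca1, Abcg5 and Abcg8, 4 of the 9 genes.

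Abca1 values did not separate the diets. At 1421839_at HF mice lay at -10.8, 16.8 and 75.1 millionths from the LF mean, against -54.7, -6.82 and 55.5 in LF mice, and the groups overlapped over most of their range. The standardized differences were 0.57 at 1421839_at, 0.25 at 1421840_at and 0.09 at 1450392_at (limma, adjusted p = 0.705, 0.898 and 0.970), the last with an interval of -0.96 to 1.13. Abcg1 gave 0.15 at 1423570_at (-0.90 to 1.2) and 0.62 at 1455221_at (-0.48 to 1.68), with limma's adjusted p of 0.945 and 0.689. Over the 5 probe sets the intervals reached from -0.96 to 1.68. After quantile normalization Abcg1 1423570_at turned sign and was called lower in HF, at -4.24 (limma, adjusted p = 0.00107), and 1455221_at was at -0.75 (limma, adjusted p = 0.341). After centring on column medians all 5 were below 0, between -2.78 and -0.70, so the sign of these values depends on the scaling.

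**Figure D3:**
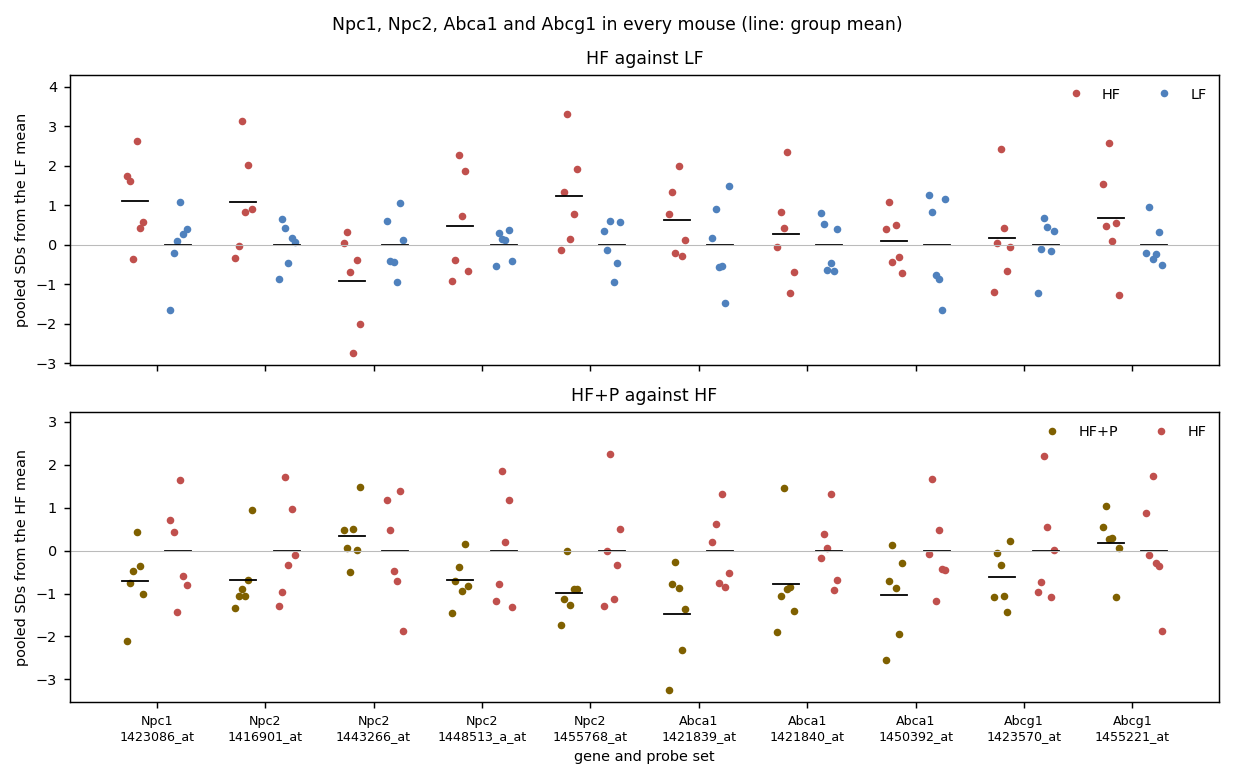
Values of Npc1, Npc2, Abca1 and Abcg1 in every mouse (y axis, pooled SDs from the LF mean in the top panel and from the HF mean in the bottom panel), with lines at the group means, n = 6; the upper panel shows HF beside LF and the lower panel HF+P beside HF. The groups overlap at every probe set in both panels.

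Abcg5 and Abcg8 encode the 2 half-transporters that join to secrete sterols into bile, and they lie head to head on chromosome 17 (GRCm38.p6, Abcg5 at chr17:84658174-84683011 and Abcg8 at chr17:84676302-84700333, ranges that overlap because an upstream Abcg8 start is annotated within Abcg5). The interval between the start of Abcg5 and the nearer annotated start of Abcg8 is shown because it is shared by both genes. It spans chr17:84683012-84683120, 109 bases, from RefSeq's table for GRCm38.p6, plus strand, with each GATAA, the core bound by GATA factors, in capitals as it reads on the opposite strand:
Abcg5 Abcg8 interval: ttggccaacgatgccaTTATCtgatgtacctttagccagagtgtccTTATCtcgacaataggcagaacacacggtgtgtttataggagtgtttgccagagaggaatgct
GATAA was found 2 times in the interval (both strands searched). Among 32851 promoters, 0.788% hold as many in the 109 bases upstream of the start and 9.36% hold at least 1. The LXR consensus, AGGTCA repeated after 4 bases, had 0 matches in the promoters of Abcg5, Abcg8, Abca1 and Npc2, and was found in 0.0152% of all promoters. It thus missed the repeat of Abca1 too, so a lack of matches does not show that a promoter lacks LXR repeats.

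Abcg5 was the one member besides Stard4 whose groups did not overlap. HF mice lay at -807, -514 and -179 millionths from the LF mean (lowest, median, highest), against -165, -48.4 and 349 millionths in LF mice. The gap between HF mouse 4, the highest of HF, and LF mouse 8, the lowest of LF, was small beside the range of either group, and LF mouse 5 stood far above the other LF mice. The standardized difference was -2.34 (-3.76 to -0.86), and limma's adjusted p of 0.0717 missed the threshold. It missed it as well in each of the 12 fits without 1 mouse, with sizes between -3.04 and -2.15 and limma's adjusted p between 0.0539 and 0.142. Without LF mouse 5 the size was -2.36 (limma, adjusted p = 0.126). It was called when only the brighter probe sets were tested (limma, adjusted p = 0.0439) and after median centring (-2.70; limma, adjusted p = 0.000495), but not after quantile normalization (-0.53; limma, adjusted p = 0.512), where its rank spanned 1 place. Median centring called 42047 of 45037 probe sets lower in HF, so the call there does not set Abcg5 apart.

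Abcg8 values were lower in HF too, at -30.3, -10.8 and 10.6 millionths from the LF mean, against -9.97, -0.44 and 13.4 in LF mice, with a standardized difference of -0.82 (-1.90 to 0.30; limma, adjusted p = 0.560). Although 5 of 6 HF mice were below the LF median, the groups overlapped. In both genes HF mouse 3 was the lowest and HF mouse 4 the highest of HF, and LF mouse 5 was the highest of all 12 mice. Without HF mouse 3 the size was -0.59 for Abcg8 and -2.24 for Abcg5.

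**Figure D4:**
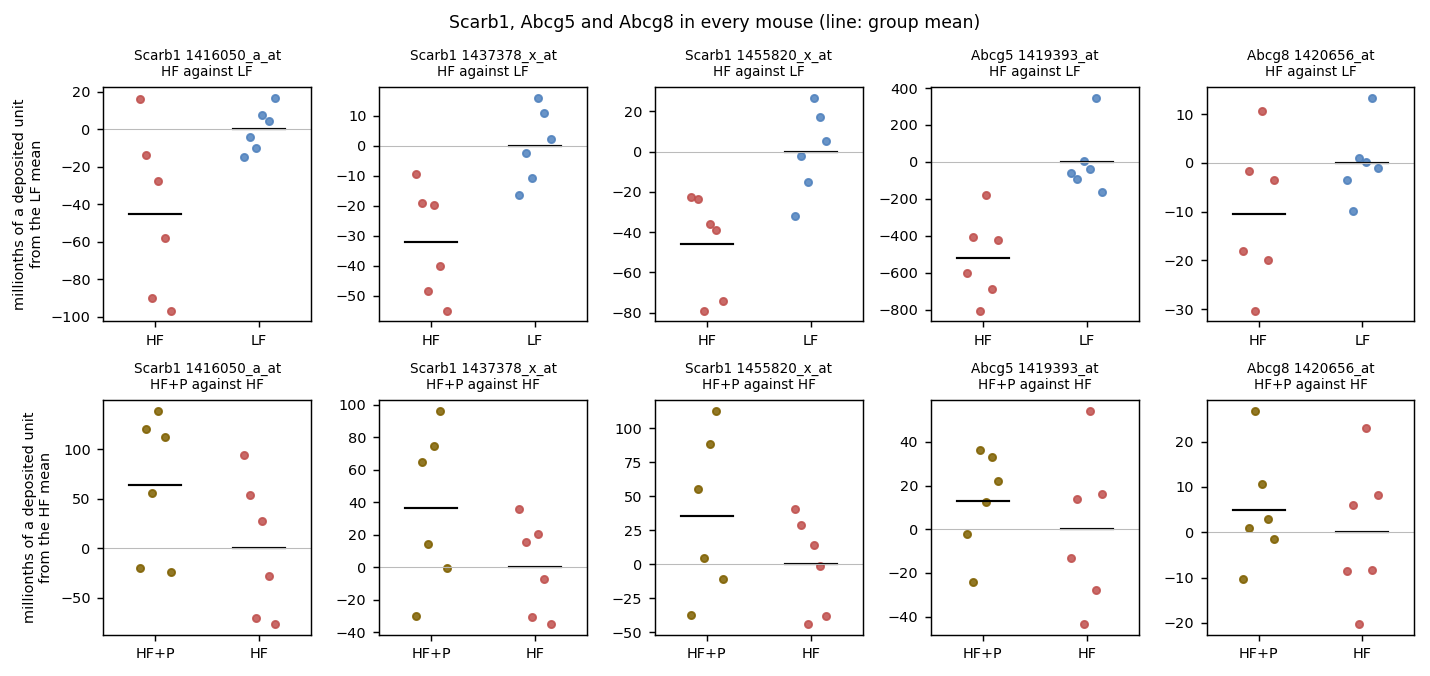
Values of Scarb1, Abcg5 and Abcg8 in every mouse (y axis, millionths of a deposited unit from the LF mean in the top row and from the HF mean in the bottom row), with lines at the group means, n = 6; axes differ between panels. In the top row HF mice lie low at all 5 probe sets and clear of LF at Abcg5 only, and in the bottom row HF+P and HF overlap at all 5.

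Among the sterol genes around the set, most calls in HF against LF livers fell on cholesterol synthesis. The lists were counted with 1 probe set per gene, beside 69 higher and 110 lower calls among 18193 genes (0.984% called) and a median of 0.01. In cholesterol synthesis 15 of 17 measured genes were called higher, 0 lower, with a median of 3.96; Msmo1, a methyl sterol oxidase, rose by 10.1 (5.61 to 14.6), Lss, the enzyme that makes lanosterol, by 9.997 (5.56 to 14.4) and Cyp51, which demethylates it, by 8.84 (4.88 to 12.8). Stard4 moved in the same direction as these enzymes. Of 17 other sterol transfer proteins measured, among them START proteins, oxysterol-binding proteins and Aster proteins, 0 were called in either direction, and all lay between -0.84 and 1.30 with a median of 0.01.

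Among sterol sensing genes 3 of 15 were called higher and 2 lower, with a median of 0.10. Insig1, which holds SCAP in the endoplasmic reticulum, rose by 4.65 (2.36 to 6.88; limma, adjusted p = 0.00381), and Erlin2, a membrane protein of the endoplasmic reticulum that takes part in protein degradation there, fell by 3.25 (-4.97 to -1.47). Erlin2 was not called after quantile normalization (-1.18; limma, adjusted p = 0.145) and in 2 of the 12 fits without 1 mouse. Scap rose by 3.08 and Srebf2, the gene of SREBP-2, by 2.85, but both had values below 0 after median centring (-2.32 and -2.39), Srebf2 also after quantile normalization (-2.82), and without 1 mouse the calls were lost in 7 and 11 of 12 fits. The remaining call was Insig2, the second retention protein, with -2.68, named after its value was seen. Its size was the smallest of these calls, and whether it holds in the alternatives was not followed. Of 11 lysosomal genes 1 was called in each direction: Tmem97, which binds NPC1 and limits its amount, rose by 5.07 (2.63 to 7.48), while Lipa, the lipase that frees cholesterol from its esters in lysosomes, fell by 4.11 (-6.14 to -2.03). The call of Tmem97 was lost after quantile normalization (1.68; limma, adjusted p = 0.0518), a setting that gave no value for Lipa.

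The uptake and HDL lists held few calls. Of 13 lipoprotein receptor genes 1 was called, Sdc1, a heparan sulfate proteoglycan that binds remnant particles, which fell by 5.43 (-7.97 to -2.84); Mylip, a ubiquitin ligase induced by LXR, was at -0.93 and Npc1l1, the sterol uptake transporter, at -0.46. Of 15 HDL and SR-BI partner genes 2 were called lower, Apoc2, the lipoprotein lipase cofactor, which fell by 4.02 (-6.02 to -1.97), and Apoa4, an apolipoprotein of HDL and chylomicrons, which fell by 3.23 (-4.94 to -1.46). The call of Apoa4 was lost after quantile normalization (-0.75; limma, adjusted p = 0.340) and in 5 of the 12 fits without 1 mouse, among them those without HF mouse 2, 3 or 4. Quantile normalization gave no value for Sdc1 or Apoc2. Apoa1, the main HDL protein, was at -0.73, and its probe sets differed in sign. Pdzk1, which stabilises SR-BI in the hepatocyte membrane, was at 1.34 (0.12 to 2.51; limma, adjusted p = 0.295). Lcat, the plasma enzyme that esterifies HDL cholesterol, was at 1.25 (limma, adjusted p = 0.353), and its sign as well as that of Pdzk1 turned with median centring.

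Of 16 LXR target genes, 4 of them members of the set, 0 were called in either direction, 6 were higher and 10 lower by value, and the median was -0.44. Nr1h3, the gene of LXR alpha, was at 0.36 and also turned sign with median centring. Srebf1, an LXR target and the gene of SREBP-1, was at 0.05 (-0.999 to 1.09), and Cyp7a1, the rate-limiting enzyme of bile acid synthesis, at -0.41 (-1.46 to 0.66). No gene was called among 9 of sterol ester formation and breakdown (median 0.76) or 11 of sterol removal as bile acids and oxysterols (median 0.29). Soat1 and Nr1h2 were not analysed here.

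**Figure D5:**
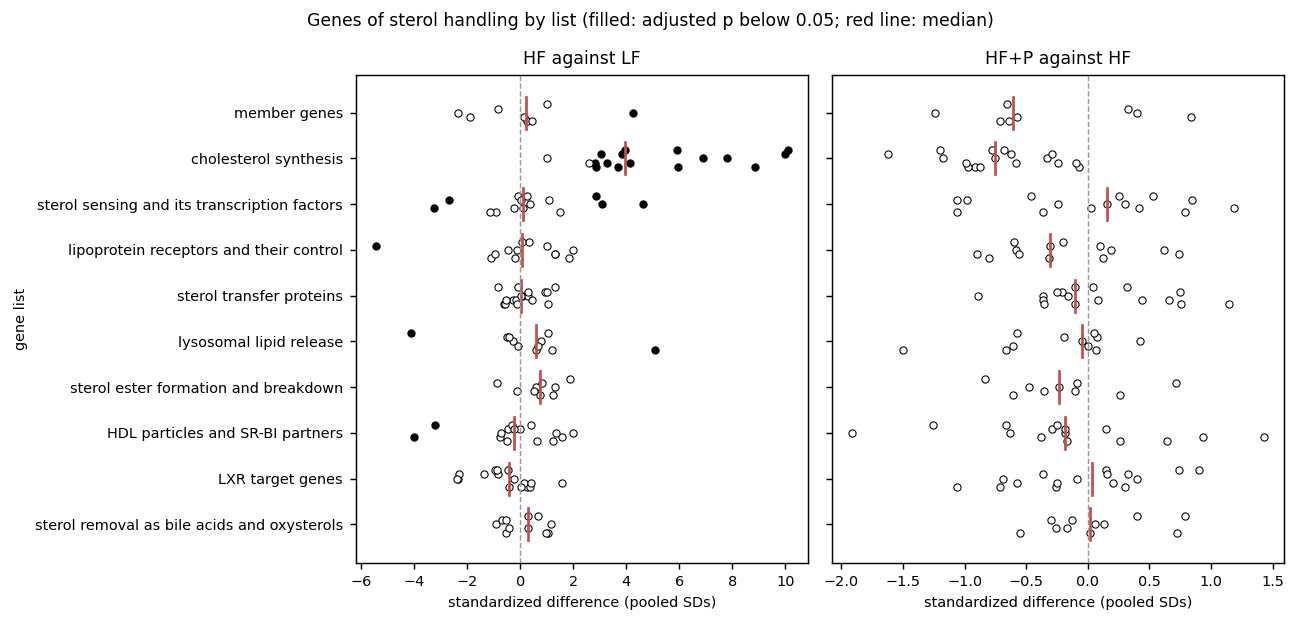
Standardized difference (x axis, pooled SDs) of each measured gene, 1 probe set per gene, in the lists of sterol genes, for HF against LF (left) and HF+P against HF (right, on a narrower scale); filled points passed an adjusted p of 0.05 and red lines are list medians. Cholesterol synthesis genes lie to the right in HF against LF, at a median of 3.96, and all 17 lie left of 0 in HF+P against HF with none filled.

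Marker scores were compared for hepatocyte, macrophage, endothelial, stellate, bile duct, lymphocyte, pancreatic acinar, intestinal epithelium, fat cell and red blood lists. Of these, the mean scores of 2 short lists did not overlap between the diets, although their genes went both ways. The score of 3 pancreatic acinar markers ran from 0.38 to 1.27 in HF mice and from -0.48 to 0.23 in LF mice, with 0 of 3 called, Cela1 at 2.29, Cpa1 at 0.94 and Prss2 at -0.85. That of 4 intestinal epithelium markers ran from -2.05 to -0.74 in HF and from -0.69 to 0.70 in LF. Fabp2, a fatty acid binding protein, was called lower at -4.44, while Lgals4 was at -0.66, Lct at -0.29 and Vil1 at 0.58. Lymphocyte marker scores ran from -0.09 to 2.42 in HF and from -0.41 to 0.43 in LF, and hepatocyte scores from -1.21 to 0.22 in HF and from -1.01 to 0.74 in LF. Their part in the values of Stard4, Scarb1 and Abcg5 was not tested.

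In HF+P against HF livers no gene of the set was called. Of the 18 probe sets 0 passed, and over the array 1 of 45037 did (0.00222%). In 0 of the 18 the groups did not overlap, beside 0.162% of the array with higher and 0.193% with lower values in HF+P. By value 7 were higher and 11 lower in HF+P, with a median standardized difference of -0.63 beside -0.01 over all probe sets. An unadjusted p below 0.05 was met by 4, all lower in HF+P, the 3 of Stard4 and 1 of Abca1, against 6.94% of the array in either direction, 3.2% lower and 3.74% higher. These values share the HF mice with the comparison above, so opposite signs in the 2 comparisons are not independent of each other.

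Stard4 values were lower in HF+P at all 3 probe sets without passing. At 1429240_at HF+P mice had 8.6194, 8.6202 and 8.6208 (lowest, median, highest), against 8.6205, 8.6212 and 8.6217 in HF mice. At 1429239_a_at they had 8.2092, 8.2104 and 8.2108, against 8.2104, 8.2114 and 8.2118 in HF, and at 1455011_at 9.2489, 9.2496 and 9.2498, against 9.2496, 9.2498 and 9.2501 in HF. All 6 HF+P mice lay below the HF median at each probe set, but the groups overlapped. HF+P mouse 2 was the lowest of the 12 mice at all 3.

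The standardized differences of Stard4 were -1.86 at 1429240_at (-3.15 to -0.51; limma, adjusted p = 0.527), -1.59 at 1429239_a_at (-2.81 to -0.31; limma, adjusted p = 0.583) and -1.24 at 1455011_at (-2.39 to -0.04; limma, adjusted p = 0.699). The adjusted p stayed at or above 0.452 in every fit that left out 1 mouse. Quantile normalization turned the sign at 1455011_at, to 0.79. In the other value set, HF against LF, the same probe sets gave 5.10, 5.30 and 4.25.

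Abca1 was lower in HF+P at all 3 probe sets by value. At 1421839_at HF+P mice lay at -106, -36.0 and -8.32 millionths from the HF mean, against -27.4, -5.46 and 43.2 in HF mice. All 6 HF+P mice were below the HF median and the groups overlapped, with HF+P mouse 1 the lowest. The standardized difference was -1.36 there (-2.53 to -0.14; limma, adjusted p = 0.659), -0.71 at 1421840_at and -0.96 at 1450392_at. Without HF+P mouse 3, which stood high at 1421840_at, that probe set gave -1.67 (limma, adjusted p = 0.603).

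Scarb1 values were higher in HF+P, at 0.83 for 1416050_a_at (-0.29 to 1.92), 0.84 for 1437378_x_at (-0.28 to 1.93) and 0.67 for 1455820_x_at (-0.43 to 1.74), with limma's adjusted p between 0.791 and 0.840. At 1437378_x_at HF+P mice lay at -29.8, 39.8 and 96.2 millionths from the HF mean and HF mice at -34.9, 4.24 and 36.1, and 3 HF+P mice lay above every HF mouse. Npc1 was at -0.66, and Npc2 at -0.63, 0.31, -0.64 and -0.91. Abcg1 was at -0.58 and 0.17, Abcg5 at 0.40 (-0.67 to 1.45) and Abcg8 at 0.32 (-0.74 to 1.37). For each of these genes the interval reached to both sides of 0, and the groups overlapped.

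In the lists of sterol genes 0 of the genes were called in HF+P against HF, beside 1 of 18193 genes (0.0055%). The 17 cholesterol synthesis genes were all lower by value, with a median of -0.75, while the medians were 0.15 for sterol sensing, -0.10 for sterol transfer proteins, 0.03 for LXR targets and 0.02 over all genes. Pdzk1 was at -1.91 (-3.21 to -0.55; limma, adjusted p = 0.522), Tmem97 at -1.50 and Apoa4 at -1.26, none of them called. Macrophage markers were lower by value in 11 of 12 genes, with scores from -1.56 to 0.13 in HF+P and from -0.94 to 1.77 in HF mice. Their part in the lower values of Npc2 and Abca1 was not tested.

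The 6 HF arrays occur in both value sets, which shows what the processing did to the members. Levels moved: Stard4 1429239_a_at had an HF mean of 8.211 in the set with HF+P and 7.582 in the set with LF. The order of the HF mice was largely kept, with 11 to 15 of 15 pairs of mice in the same order at every one of the 18 probe sets. The SD did not keep its size: in the set with HF+P it was 0.132, 0.170 and 0.094 of that in the set with LF for Stard4 and 0.156 for Abcg5, but 3.32 times that for Abca1 1421840_at. A difference in deposited units can therefore not be carried from one comparison to the other.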

How the data were processed

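Total RNA of 18 livers was extracted with Trizol and biotin-labelled RNA hybridised, per the labels' protocols. The authors deposited 1 table of 45101 probe sets and 24 columns, handled here as a score without a stated unit; R 2.7.2 was used per the submitters' processing notes, and how values were summarised, normalised and scaled is not given in the sources used here.

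After 64 control probe sets were left out, each comparison was fitted on its own 12 columns in limma 3.58.1 (R 4.3.3; lmFit and eBayes, no covariate, two-sided, Benjamini-Hochberg over 45037 probe sets, threshold 0.05). The 6 arrays per group limit the precision, and p-values measure the spread between the numbered mice. In simulated data, 100 probe sets were changed at each size. For HF against LF 96 of 100 differences of 5 pooled SDs and 10 of 100 of 2 were called, and for HF+P against HF 92 and 10. Among unchanged probe sets 8 and 10 were called. The Benjamini-Hochberg cutoff is stricter when fewer probe sets differ, and HF+P against HF itself had 1 call. The 92 is therefore not the rate at which a change in a single member would be found there.

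Lists used the probe set of a gene with the highest mean. Named besides the members were 15 fixed genes, up to 3 called genes per list and the 3 nearest to each called member probe set. The members and lists were chosen with earlier results of these data known. Alternatives were quantile normalization, median centring, the brighter probe sets, 1 probe set per gene, a trended and robust fit, array weights, no sharing of the spread, a block on mouse number, and fits without each mouse in turn. Deviations of same-numbered mice correlated by -0.13 to 0.10 (HF and LF, 6 pairs) and 0.03 to 0.21 (HF+P and HF, 5 pairs). The same number was the best match in 4 of the 6 and 3 of the 5 pairs. On the low correlations the numbers were not taken to pair the mice, which does not exclude a pairing. Calls with the block are given at the end.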

Additional observations from a re-analysis of the deposited data

Results flagged for a closer look

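In 3 of the 72 groups of 6 mice examined over the 18 probe sets (both value sets), the highest mouse stood apart by more than Dixon's 95% critical value of 0.625, where the gap to the next mouse is divided by the range of the group; chance gives about 1 in 20. At Npc2 1416901_at the ratio was 0.712 for HF+P mouse 8, and without it the difference of HF+P from HF was -1.05 in place of -0.63 (limma, adjusted p = 0.694). At Abca1 1421840_at it was 0.684 for HF+P mouse 3, and without it the difference was -1.67 in place of -0.71 (limma, adjusted p = 0.603). At Abcg5 1419393_at it was 0.67 for LF mouse 5, and without it the difference of HF from LF was -2.36 in place of -2.34, with limma's adjusted p at 0.126 in place of 0.0717. None of the 3 was called with or without the mouse.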

How the results depend on the processing

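The 3 calls of Stard4 in HF against LF were made in every alternative that tested these probe sets, with 1 member called of 8 when only 1 probe set per gene was tested, and 0 members were called in HF+P against HF in any alternative. Scaling decided most else. After quantile normalization 6766 probe sets were called in HF against LF in place of 302, 174 higher and 6592 lower, and 5 members in place of 3; Npc2 1416901_at (-2.20), Abcg1 1423570_at (-4.24) and Srebf2 (-2.82) turned sign, and the cause was not tested. Median centring called 42369 probe sets, 322 higher and 42047 lower, since it moves the groups by 64.5 millionths, more than the difference of 94.7% of probe sets; 16 members were called, 3 higher and 13 lower, and values turned to -2.21 (Npc1), -1.28, -1.65 and -2.09 (Npc2 1416901_at, 1448513_a_at, 1455768_at), -2.33 and -1.71 (Abca1 1421840_at, 1450392_at), -2.78 (Abcg1 1455221_at), -2.63 (Lcat), -2.56 (Nr1h3), -2.19 (Pdzk1), -2.32 (Scap) and -2.39 (Srebf2). Testing only the brighter probe sets called 568, and 4 members, with Abcg5 added. In HF+P against HF median centring called 2 probe sets in place of 1. Leaving out 1 mouse gave 131 (without LF mouse 5) to 325 (without HF mouse 5) calls in HF against LF, with 3 members in each, and 0 to 2 in HF+P against HF; the first count changed by over 1.5 times without HF mouse 2, 3 or 4 or LF mouse 1, 3, 5 or 8. Without 1 mouse the calls of Insig1, Tmem97, Lipa, Sdc1, Apoc2, Msmo1, Lss and Cyp51 were kept in 12 of 12 fits, and those of Scap, Srebf2, Apoa4 and Erlin2 were lost in 7, 11, 5 and 2; that of Srebf2 was also lost with no sharing of the spread. In HF+P against HF 0 were called without HF+P mouse 1, 2 or 4. With the mouse number as a replicate block 246 probe sets were called in HF against LF, 120 of them among the 302, and 3 members, but the calls of Insig1, Lipa, Apoc2, Apoa4, Erlin2 and Scap were not made (limma, adjusted p = 0.0554, 0.0694, 0.0690, 0.0708, 0.126 and 0.119). In HF+P against HF the block and quantile normalization each called 1 probe set, lower in HF+P, where the 1 reported was higher, so 0 were shared. Every HF mouse had a same-numbered LF mouse, and for 4 of 6 pairs the same number was the best match, a hint from the data only. With 6 arrays a group, differences of 2 pooled SDs would mostly be missed.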
